A study of Bos taurus with 50 samples.

Results

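The estrogen receptors ESR1 (ENSBTAG00000007159) and ESR2 (ENSBTAG00000004498) and the oxytocin receptor OXTR (ENSBTAG00000019772) were followed in the endometrium of postpartum dairy cows. They are 3 of the 18830 genes in the count table and were taken by their Ensembl identifiers, with earlier results of these data known. All 3 passed the filter on low counts in every fit. The libraries came from biopsies of primiparous Holstein × Jersey crossbred cows at week 5 and week 9 postpartum, grouped by what the ovary was doing at week 5. CycW5 cows had a corpus luteum and circulating progesterone (P4) at week 5 (10 libraries at week 5 and 10 at week 9), and NoCycW5 cows had no corpus luteum and P4 below detection (12 and 11 libraries). CycNoP4 cows had P4 in the week before but little at week 5, with no corpus luteum or with a corpus luteum that held a cavity (4 and 3 libraries), and the study left this group out of its analysis. All cows had their ovulation synchronized between the biopsies with GnRH, an intravaginal P4 insert and PGF2α. The 3 week 9 groups thus share this history, and week 9 was planned as day 13 of the cycle in each of them. At both weeks the biopsy came from the uterine horn on the side of the corpus luteum or the largest follicle, so it is mixed tissue from 1 site. Libraries are named below by the number in their label.

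ESR1 and ESR2 encode nuclear receptors that bind estradiol and then act as transcription factors at the same kind of DNA element, and in the uterus ESR1 is the main carrier of the growth response to estradiol. OXTR encodes a G protein-coupled receptor for oxytocin. In ruminants, oxytocin acting on this receptor in the luminal epithelium drives the pulses of PGF2α that end the life of the corpus luteum, and P4 is known to hold both ESR1 and OXTR down through much of the luteal phase. ESR2 is usually described as the minor estrogen receptor of the adult endometrium, and its control in cattle is less well known.

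Levels are given as CPM, the read counts scaled to a common library size, after TMM normalization over the 50 libraries, whose totals ran from 21592867 to 32813237 counts (median 28126022.5). At this depth the smallest value of a member rested on 8 reads (ESR2 in library 48), and all values of ESR1 rested on at least 743 reads. Repeated libraries were looked for in all 1225 pairs, and every pair differed by more than sampling noise (a chi-square per gene of 29 or more on average). Markers of endometrial epithelium and stroma were present: the epithelial genes EPCAM and KRT8 summed to at least 216 CPM and the stromal gene PDGFRA reached at least 269 CPM in every library. Week 5 libraries carry label numbers up to 70 and week 9 libraries from 72, so the week, the synchronization and the order of the libraries cannot be told apart. The study kept for its analysis only cows with transcriptome data at both weeks, so cows among these gave a library at each week. The labels do not link libraries to cows, so P values measure the spread between libraries. Tests between the weeks, and of the difference of changes, thus treated repeated biopsies of a cow as independent libraries.

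At week 5, ESR2 and OXTR lay in opposite places in CycW5 and NoCycW5 cows, and ESR1 lay in the same range in both. In ESR2, the CycW5 libraries ran from 3.72 CPM to 22.8 CPM with a median of 13.7 CPM. The NoCycW5 libraries ran from 0.255 CPM to 5.01 CPM with a median of 1.81 CPM. Of the 10 CycW5 libraries, 9 lay above the highest NoCycW5 library, and only library 57, the lowest of its group, lay within the NoCycW5 range. ESR2 was 6.57-fold higher in CycW5 cows (log2 fold change 2.72, SE 0.40, BH P = 3.07e-06, edgeR quasi-likelihood test). Over all genes tested, 26.6% were called at a BH P of 0.05 or less in this comparison, and ESR2 was the 155th gene by P.

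OXTR ran from 5.20 CPM to 151 CPM with a median of 43.1 CPM in the CycW5 libraries at week 5. In the NoCycW5 libraries it ran from 80.3 CPM to 222 CPM with a median of 111 CPM. Of the 10 CycW5 libraries, 9 lay below the lowest NoCycW5 library, and library 57 again was the exception, at the top of its group. The edgeR log2 fold change was -1.44 (SE 0.69, 95% interval -2.80 to -0.08), which did not pass the threshold (BH P = 0.117, unadjusted P = 0.0440). Without library 57 it was -1.88 and passed (edgeR BH P = 0.0416). The call also changed with the test: limma-voom gave -1.84 (BH P = 0.00863), and a two-sided permutation test of the mean log2 CPM gave a difference of -1.82 (unadjusted P = 5e-05). The edgeR test in a fit of only these groups at week 5 gave -1.43 and passed (BH P = 0.00541). Whether OXTR passed thus depended on the test and on the libraries in the fit.

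ESR1 ran from 62.0 CPM to 146 CPM with a median of 107 CPM in the CycW5 libraries and from 54.3 CPM to 230 CPM with a median of 128 CPM in the NoCycW5 libraries. All 10 CycW5 libraries lay within the NoCycW5 range. The log2 fold change was -0.30 (SE 0.24, 95% interval -0.76 to 0.17, edgeR BH P = 0.362).

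**Figure D1:**
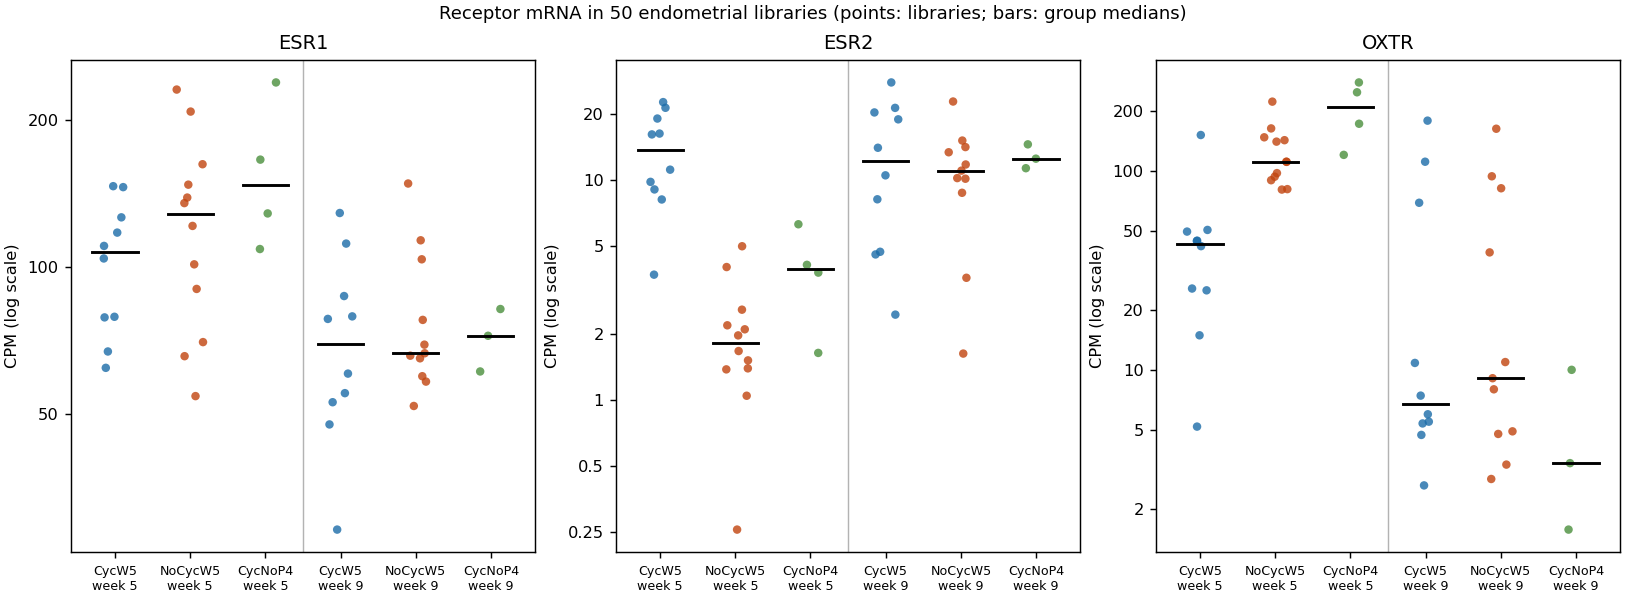
Level of ESR1, ESR2 and OXTR (CPM, log scale) in each of the 50 libraries by group and week, with bars at the group medians. In ESR2 the NoCycW5 and CycNoP4 libraries at week 5 sit at 6.31 CPM or less, and in OXTR the week 9 libraries of CycW5 and NoCycW5 cows split into a lower and an upper set.

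From week 5 to week 9, all 3 genes passed the test in NoCycW5 cows: ESR2 rose, and OXTR and ESR1 fell. ESR2 rose to between 1.62 CPM and 22.9 CPM with a median of 11.1 CPM at week 9. Of the 11 libraries, 9 lay above the highest NoCycW5 library of week 5, and libraries 76 (3.60 CPM) and 91 (1.62 CPM) lay within the earlier range. The rise was 5.33-fold (log2 fold change 2.41, SE 0.39, edgeR BH P = 1.11e-05), where 35.7% of all genes tested were called. This comparison shares its week 5 libraries with the comparison of CycW5 and NoCycW5 cows at week 5.

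OXTR in NoCycW5 cows at week 9 ran from 2.84 CPM to 162 CPM with a median of 9.10 CPM. Of the 11 libraries, 8 lay below the lowest library of week 5, and libraries 76, 80 and 91 lay within the week 5 range. The fall was 3.18-fold (log2 fold change -1.67, SE 0.68, edgeR BH P = 0.0496). This call sat on the threshold: it was lost in 19 of the 23 fits that left out 1 library (edgeR BH P 0.0511 to 0.0764) and kept without library 65, 76, 80 or 91. The permutation test gave a difference in mean log2 CPM of -2.95 (unadjusted P = 8e-05, two-sided).

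ESR1 in NoCycW5 cows ran from 51.8 CPM to 148 CPM with a median of 66.5 CPM at week 9. Its fall was 1.59-fold (log2 fold change -0.67, SE 0.23, edgeR BH P = 0.0220), and the ranges of the weeks overlapped for 10 of 11 week 9 libraries. Without library 68, the NoCycW5 library with the most ESR1 at week 5, the log2 fold change was -0.55 and did not pass (edgeR BH P = 0.0547).

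In CycW5 cows none of the 3 genes passed the test between the weeks, as was so for nearly all genes (0.0452% called). ESR2 ran from 2.44 CPM to 28 CPM at week 9 with a median of 12.3 CPM. Its log2 fold change was -0.04 (SE 0.40, 95% interval -0.82 to 0.74, edgeR BH P = 0.978). OXTR ran from 2.64 CPM to 178 CPM with a median of 6.72 CPM. Its median was thus lower than at week 5, but the week 9 libraries reached both above and below the week 5 range, and the log2 fold change was -0.18 (SE 0.70, 95% interval -1.55 to 1.20, edgeR BH P = 0.935). ESR1 ran from 28.9 CPM to 129 CPM with a median of 69.3 CPM, with a log2 fold change of -0.50 (SE 0.25, 95% interval -0.98 to -0.02, edgeR BH P = 0.346, unadjusted P = 0.0482). With library quality weights, under which 3181 genes were called in this comparison, limma-voom called ESR1 (-0.65, BH P = 0.0210) and OXTR (-1.79, BH P = 0.0290) as lower at week 9 in CycW5 cows too.

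The change between the weeks differed between NoCycW5 and CycW5 cows for ESR2, by a log2 value of 2.45 (SE 0.55, edgeR BH P = 0.00552), where 7.82% of all genes tested were called. The difference was -1.49 for OXTR (SE 0.97, 95% interval -3.39 to 0.40, BH P = 0.317) and -0.17 for ESR1 (SE 0.34, 95% interval -0.82 to 0.49, BH P = 0.778). A different course in the 2 groups of cows was therefore shown for ESR2 and not for the other members.

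At week 9, the planned day 13 of the synchronized cycle, no member passed the test between CycW5 and NoCycW5 cows. In this comparison 0.00646% of genes were called. The log2 fold changes were 0.26 for ESR2 (95% interval -0.50 to 1.02), -0.13 for ESR1 (-0.60 to 0.34) and 0.05 for OXTR (-1.29 to 1.40), with edgeR BH P values of 0.911, 0.929 and 0.992. The interval of OXTR was wide in both directions.

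**Figure D2:**
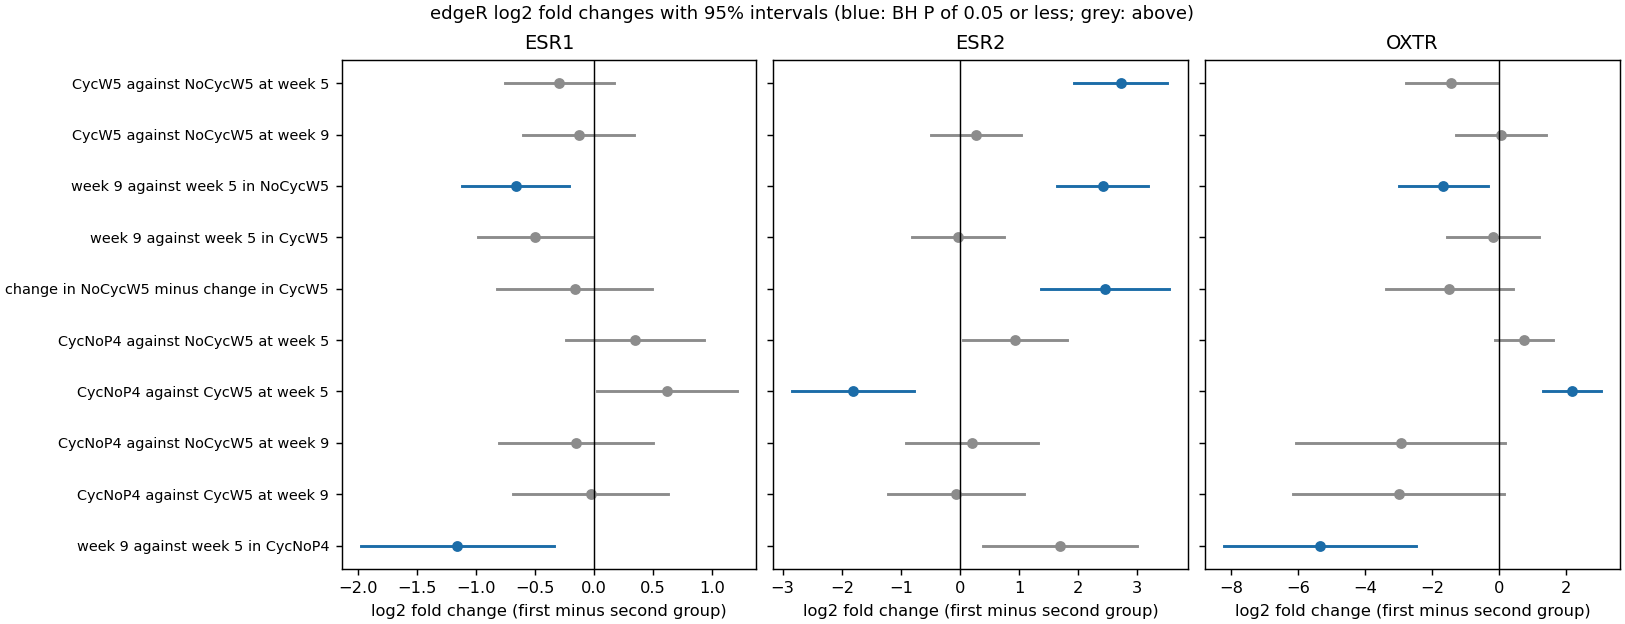
Log2 fold change of each member in the 10 comparisons, with 95% intervals from the edgeR fit; blue marks a BH P of 0.05 or less. ESR2 stands at 2.72 for CycW5 against NoCycW5 cows at week 5 and at 2.41 between the weeks in NoCycW5 cows, while the OXTR intervals are wide wherever week 9 libraries enter.

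The spread of OXTR at week 9 was not a smooth one. In NoCycW5 cows, 7 libraries lay between 2.84 CPM and 11 CPM, and the other 4 were at 38.9 CPM (library 75), 81.5 CPM (library 80), 93.6 CPM (library 76) and 162 CPM (library 91). In CycW5 cows, 7 libraries lay between 2.64 CPM and 10.8 CPM, and the other 3 were at 68.9 CPM (library 83), 111 CPM (library 72) and 178 CPM (library 87). The 3 CycNoP4 libraries lay with the lower set, at 1.58 CPM, 3.41 CPM and 10.02 CPM. OXTR thus had a lower and an upper level in cows biopsied on the same planned day of the cycle, and both levels were seen whether or not the cow had been cycling at week 5.

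ESR1 and ESR2 did not follow this split in a single way. Among the 7 libraries with the upper level of OXTR, ESR2 was at 1.62 CPM in library 91, 2.44 CPM in library 87 and 3.60 CPM in library 76, within the range of NoCycW5 cows at week 5. It was at 8.78 CPM in library 75, 13.4 CPM in library 80, 14.1 CPM in library 83 and 20.4 CPM in library 72, all above the highest NoCycW5 library of week 5. ESR1 in these 7 libraries was at 59.6 CPM in library 75 and 78.1 CPM in library 83, and between 104 CPM and 148 CPM in the other 5. In libraries 89 and 92, ESR2 (4.6 CPM and 4.72 CPM) and OXTR (7.44 CPM and 5.51 CPM) were both low, and ESR1 was at 28.9 CPM and 47.5 CPM, the lowest values of all 50 libraries.

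The CycNoP4 cows, which had cycled but were no longer under P4 at week 5, had ESR2 and OXTR levels nearer to those of NoCycW5 than of CycW5 cows. ESR2 was at 1.63 CPM, 3.80 CPM, 4.12 CPM and 6.31 CPM in libraries 51, 56, 64 and 58. Of these, 3 lay within the range of the NoCycW5 libraries and library 58 lay above it. ESR2 was 3.50-fold lower than in CycW5 cows (log2 fold change -1.81, SE 0.53, edgeR BH P = 0.0203), where 17.7% of all genes tested were called. This call was lost without library 51 (-1.54, BH P = 0.0863) or library 56 (-1.78, BH P = 0.0602). Against NoCycW5 cows, the log2 fold change of ESR2 was 0.93 (SE 0.45, 95% interval 0.05 to 1.81, edgeR BH P = 0.146), where 14.7% of genes were called.

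OXTR in the CycNoP4 libraries at week 5 was at 120 CPM, 172 CPM, 247 CPM and 277 CPM in libraries 64, 58, 51 and 56. It was the highest group mean of OXTR (204 ± 71.3 CPM, SD, n = 4), and libraries 51 and 56 lay above every other library. OXTR was 4.49-fold higher than in CycW5 cows (log2 fold change 2.17, SE 0.44, edgeR BH P = 0.00207), and was called in each of the 14 fits without 1 library of these groups. These fits held only week 5 libraries, unlike the main fit of CycW5 against NoCycW5 cows, which also held week 9 libraries. OXTR was not called when all 50 libraries were fitted together (2.17, edgeR BH P = 0.0606). Against NoCycW5 cows the log2 fold change was 0.74 (SE 0.44, 95% interval -0.12 to 1.6, edgeR BH P = 0.234), although the permutation test of the mean log2 CPM gave an unadjusted exact P of 0.0192.

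ESR1 in the CycNoP4 libraries at week 5 was at 109 CPM, 129 CPM, 166 CPM and 238 CPM in libraries 51, 64, 56 and 58, and library 58 had the most ESR1 of all 50 libraries. The log2 fold change was 0.62 against CycW5 cows (SE 0.30, 95% interval 0.02 to 1.21, edgeR BH P = 0.153) and 0.34 against NoCycW5 cows (SE 0.30, 95% interval -0.24 to 0.93, edgeR BH P = 0.422). The libraries of the highest ESR1 (58) and the highest OXTR (56) within this group were thus different ones.

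Between the weeks, the CycNoP4 cows changed in the same directions as the NoCycW5 cows, and their week 5 and week 9 libraries did not overlap in any of the 3 genes. OXTR went from at least 120 CPM to 1.58 CPM, 3.41 CPM and 10.02 CPM in libraries 94, 79 and 88, a fall of 41-fold (log2 fold change -5.36, SE 1.46, edgeR BH P = 0.0112). ESR1 went to 61.0 CPM, 72.2 CPM and 81.9 CPM in libraries 79, 94 and 88, a fall of 2.24-fold (log2 fold change -1.16, SE 0.42, edgeR BH P = 0.0435). ESR2 went to 11.4 CPM, 12.6 CPM and 14.6 CPM in libraries 94, 88 and 79, with a log2 fold change of 1.69 (SE 0.66, edgeR BH P = 0.0616) that did not pass. With 4 and 3 libraries such separation was common: of 16120 genes, 14% did not overlap with week 9 higher and 12.3% with week 9 lower, and 19.6% were called. The OXTR call was lost without library 79 (-5.17, BH P = 0.0564) or 94 (-4.96, BH P = 0.0601), and the ESR1 call without library 56, 58, 79, 88 or 94 (BH P 0.0755 to 0.142).

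At week 9, no member passed the edgeR test between the CycNoP4 cows and either other group, where 0% of 15771 genes were called in either comparison (665 genes against NoCycW5 and 684 against CycW5 cows had an unadjusted P under 0.05, and DESeq2 called 8 and 3 genes). The log2 fold change of OXTR was -2.95 against NoCycW5 cows (95% interval -6.07 to 0.18, BH P = 0.898) and -3.01 against CycW5 cows (95% interval -6.16 to 0.14, BH P = 0.837). Those of ESR1 and ESR2 lay between -0.16 and 0.20 with intervals no wider than -1.21 to 1.32.

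Over the 6 groups, the mean levels of ESR2 in order were 13.8 ± 6.30 CPM (CycW5, week 5), 13.3 ± 8.60 CPM (CycW5, week 9), 12.8 ± 1.64 CPM (CycNoP4, week 9), 11.2 ± 5.70 CPM (NoCycW5, week 9), 3.96 ± 1.91 CPM (CycNoP4, week 5) and 2.09 ± 1.30 CPM (NoCycW5, week 5), each as mean and SD. The ranges of all neighbors in this order overlapped, and the widest step lay between NoCycW5 cows at week 9 and CycNoP4 cows at week 5. For OXTR the order was 204 ± 71.3 CPM (CycNoP4, week 5), 123 ± 41.7 CPM (NoCycW5, week 5), 45.2 ± 40.1 CPM (CycW5, week 5), 40.02 ± 60.5 CPM (CycW5, week 9), 38.2 ± 52.4 CPM (NoCycW5, week 9) and 5.00 ± 4.44 CPM (CycNoP4, week 9). For ESR1 it was 160 ± 57.2 CPM (CycNoP4, week 5), 127 ± 55.1 CPM (NoCycW5, week 5), 104 ± 30.9 CPM (CycW5, week 5), 79.9 ± 29.5 CPM (NoCycW5, week 9), 72.9 ± 30.4 CPM (CycW5, week 9) and 71.7 ± 10.5 CPM (CycNoP4, week 9). In ESR1 and OXTR too the ranges of all neighbors overlapped. ESR1 and OXTR had the 3 week 5 groups in the same order, with the CycW5 cows lowest, whereas ESR2 had the CycW5 cows highest of the 3.

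The balance of the receptors was then read as the ratio of the reads of a pair of genes within each library, a measure that needs no scaling between libraries and was chosen after the values had been seen. Because transcript lengths were not used, a ratio is compared between groups and not read as the ratio of molecules. ESR1 had a median of 68.1 reads per ESR2 read in NoCycW5 cows at week 5 (lowest 29.3, highest 446) and of 6.79 in CycW5 cows at week 5 (3.24 to 39.2), with medians taken on the log2 scale. The ratio was 8.28-fold lower in CycW5 cows (permutation P = 1e-05, the smallest that the resamples can give, BH P = 9e-05 over 27 ratio tests). In CycNoP4 cows at week 5 the median was 40.5 (31.1 to 65.8), which was 5.28-fold above CycW5 cows (exact permutation P = 0.003, BH P = 0.0101) and 1.57-fold below NoCycW5 cows (exact permutation P = 0.260, BH P = 0.413). At week 9 the medians were 5.90 in CycW5, 6.33 in NoCycW5 and 6.34 in CycNoP4 cows.

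OXTR had a median of 67.9 reads per ESR2 read in NoCycW5 cows at week 5 (27.4 to 330) and of 2.92 in CycW5 cows (0.229 to 40.4), a 25.2-fold difference (permutation P = 1e-05, BH P = 9e-05). In CycNoP4 cows at week 5 it was 45.9 (27.1 to 149). At week 9 it was 0.723 in NoCycW5 cows, a 42.2-fold fall (permutation P = 1e-05, BH P = 9e-05), and 0.235 in CycNoP4 cows, the largest change of the 27 (182-fold), where 3 against 4 libraries allow no exact P below 0.0286 and the change did not pass (BH P = 0.0644). Relative to ESR1, OXTR was 3.04-fold lower in CycW5 than in NoCycW5 cows at week 5 (permutation P = 2e-04, BH P = 0.00108). It fell by 5.10-fold between the weeks in NoCycW5 cows (permutation P = 0.00048, BH P = 0.00216). OXTR thus moved further than ESR1 in these comparisons.

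**Figure D3:**
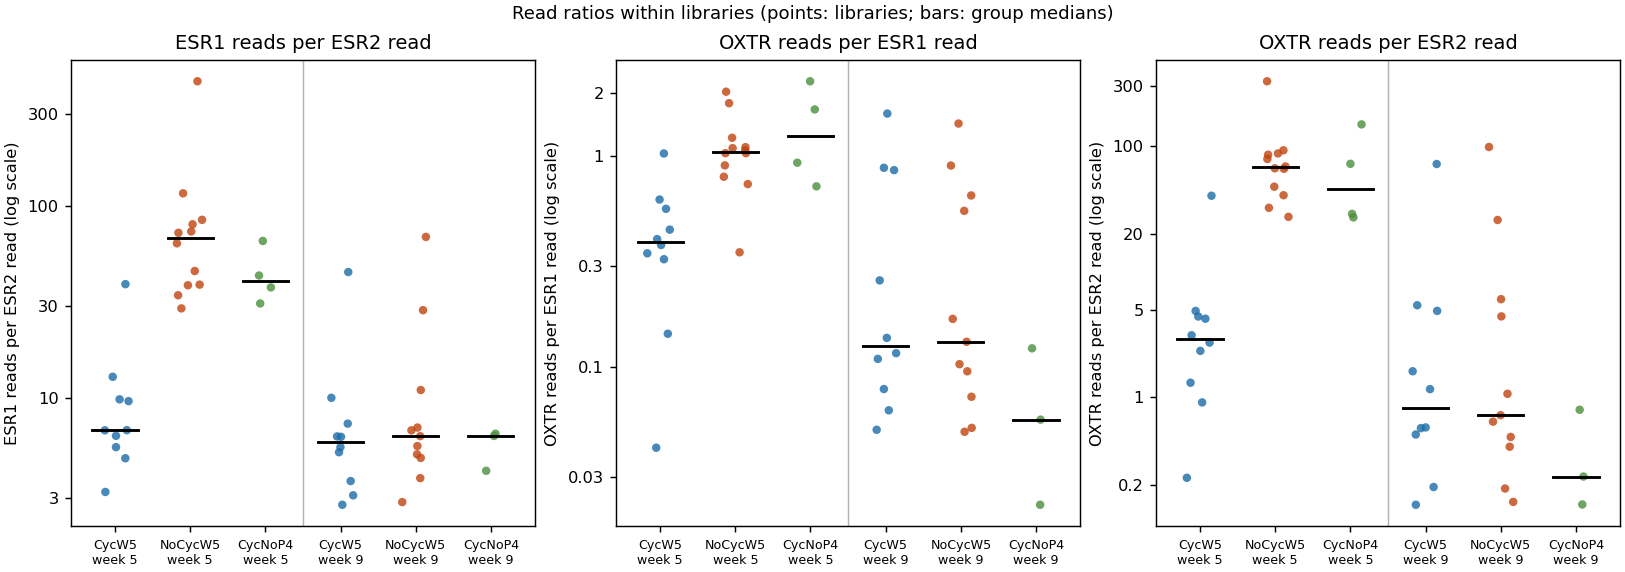
Reads of one receptor gene per read of another within each library (log scale) by group and week, with bars at the medians of the log ratios. ESR1 reads per ESR2 read have medians of 68.1 and 40.5 in NoCycW5 and CycNoP4 cows at week 5 and between 5.90 and 6.79 in the other 4 groups.

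No relation between the 3 genes within groups passed the test. The 16 relations of log2 CPM were computed in each group of 10 or more libraries and on values centered on group means. For OXTR at week 9 they were computed only in the lower set of CycW5 and of NoCycW5 cows (7 libraries each). None had a BH P of 0.05 or less (lowest 0.362). In CycW5 cows at week 5, ESR2 and OXTR had a Pearson r of -0.69 (permutation P = 0.0328) and a Spearman rho of -0.467 (permutation P = 0.179). This relation rested on 2 libraries, since r was -0.117 without those farthest from the ESR2 median. In NoCycW5 cows at week 5 the sign was the opposite, with r of 0.498 (permutation P = 0.0965) and rho of 0.629 (permutation P = 0.0327) for ESR2 and OXTR. ESR1 and ESR2 had r of 0.326 (permutation P = 0.309) and rho of 0.622 (permutation P = 0.0348) in the same libraries. ESR1 and OXTR had r of 0.157 and 0.383 in CycW5 and NoCycW5 cows at week 5 (permutation P = 0.673 and 0.218), and rho of 0.491 and 0.406 (permutation P = 0.156 and 0.193). Over the 26 week 5 libraries, centered on group means, ESR2 and OXTR had r of -0.245 (permutation P = 0.207) and rho of -0.0612 (permutation P = 0.776). At week 9, no r over a whole group is given for OXTR because of its lower and upper sets. A relation of OXTR to ESR1 or ESR2 that spans both sets was therefore not tested.

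**Figure D4:**
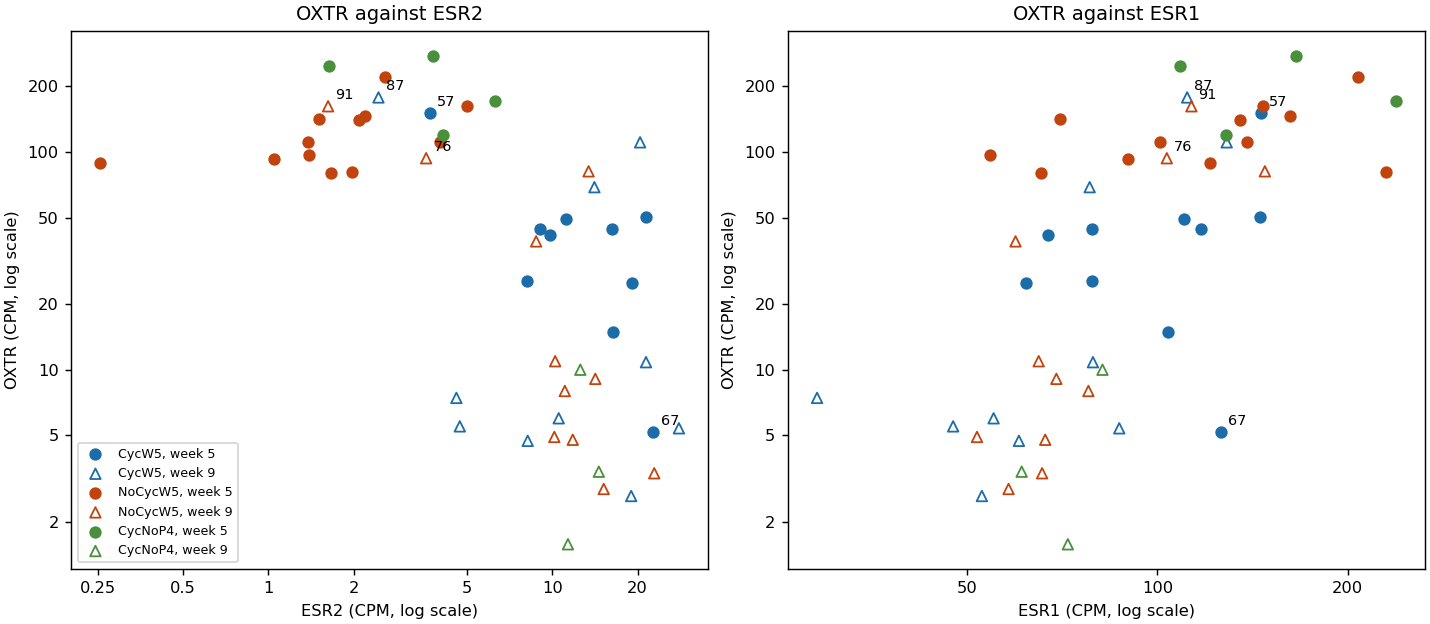
OXTR against ESR2 and against ESR1 in each library (CPM, log scales), with filled circles for week 5 and open triangles for week 9, and libraries 57, 67, 76, 87 and 91 numbered. NoCycW5 and CycNoP4 libraries at week 5 take the upper left of the ESR2 panel, where CycW5 library 57 (3.72 and 151 CPM) and week 9 libraries 76, 87 and 91 also lie.

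The opposite places of ESR2 and OXTR were seen between groups, and a relation within groups was not shown with these numbers of libraries. At week 9 a relation over both sets of OXTR was not tested. Some single libraries held the extremes of both genes in their group. Library 57 had the lowest ESR2 and the highest OXTR of the CycW5 cows at week 5, library 87 the lowest and highest of the CycW5 cows at week 9, and library 91 the lowest and highest of the NoCycW5 cows at week 9. At the other end, library 67 had the highest ESR2 (22.8 CPM) and the lowest OXTR (5.20 CPM) of the CycW5 cows at week 5. Other libraries went the other way. Library 94 had both the lowest ESR2 (11.4 CPM) and the lowest OXTR (1.58 CPM) of the CycNoP4 cows at week 9. Library 47 had the highest ESR2 of the NoCycW5 cows at week 5 (5.01 CPM) with OXTR at 163 CPM, above the group median of 111 CPM. These libraries were picked after the values had been seen.

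The genes most like each member over the 50 libraries were taken from 2271 genes with a symbol among the 16119 other genes tested. The symbols come from the study's own lists of changed genes, so the choice favors genes that differ between these groups, and the libraries share their group, week and scaling. For ESR2 the closest were LRAT, which esterifies retinol (r = 0.93), the phosphatase gene PPM1H (0.92), the Wnt receptor gene FZD5 (0.92), RTP3 (0.92) and KIAA1549 (0.91). With group means removed these values were 0.81 to 0.84. LRAT had a mean of 1.52 CPM in NoCycW5 cows at week 5 and 22.3 CPM in CycW5 cows, and 2.39 CPM in CycNoP4 cows at week 5.

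For OXTR the closest were KCNE3, a potassium channel subunit (0.86), C1orf168 (0.86), ARHGAP42 (0.84), TNC, which encodes the matrix protein tenascin C (0.84), and MYRFL (0.84). With group means removed they stood at 0.71 to 0.80. These values include the week 9 groups with their lower and upper sets of OXTR, and r within the sets was not computed for these genes. For ESR1 they were ZNF713 (0.85), TRIM44 (0.81), DCBLD2 (0.80), the metalloproteinase gene ADAMTS18 (0.80) and DST, a cytoskeletal linker (0.79), with 0.68 to 0.84 within groups. Over the 50 libraries the values were higher for the companions of ESR2 than for those of ESR1 and OXTR.

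**Figure D5:**
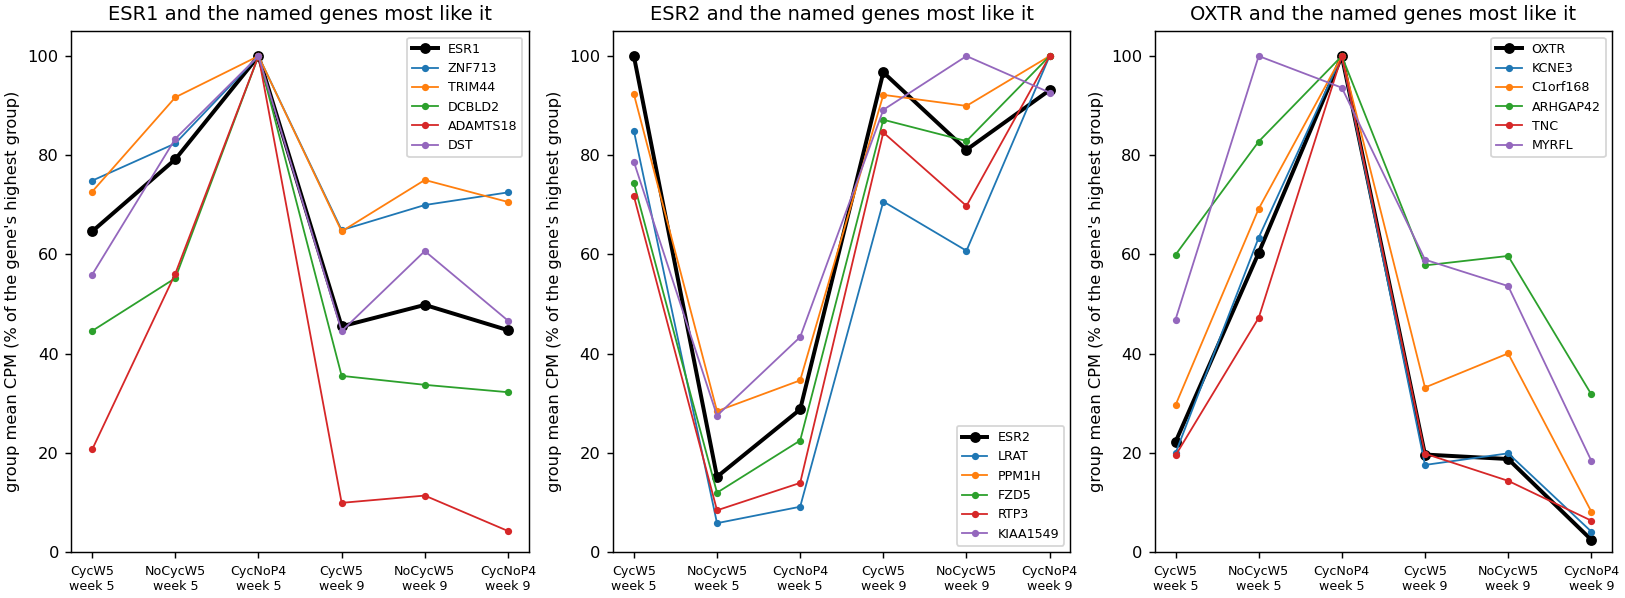
Group mean CPM of each member (black) and of the 5 named genes most like it, as a percentage of the highest group mean of each gene. ESR2 and its companions are low in NoCycW5 and CycNoP4 cows at week 5, and OXTR with most of its companions is highest in CycNoP4 cows at week 5.

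Of 102 genes in 11 lists of receptor partners and cell type markers, 18 had an identifier, and 16 of these passed the filter in the fit of the CycW5 and NoCycW5 libraries. Since these symbols come from genes the study had called, the counts below are set by that choice and describe only the genes named. The P4 receptor gene PGR is not analysed here. NCOA3, a coactivator of nuclear receptors, did not pass at week 5 (log2 fold change -0.29, edgeR BH P = 0.318). HSD17B4 and HSD17B12, of the family of enzymes that interconvert strong and weak estrogens, were higher in CycW5 than in NoCycW5 cows at week 5 (0.79 and 0.60, edgeR BH P = 0.000244 and 0.00118). In NoCycW5 cows they rose between the weeks, as did CYP1B1, which hydroxylates estrogens (0.91, 0.72 and 0.96, edgeR BH P = 2.17e-05, 7.27e-05 and 0.000725).

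OXT, the gene of the ligand oxytocin, had few reads in this tissue. Its median was 1.29 CPM in NoCycW5 cows and 0.20 CPM in CycW5 cows at week 5, with a log2 fold change of -1.36 that did not pass (SE 0.91, edgeR BH P = 0.268). In the CycNoP4 libraries at week 5 it had 5, 22, 56 and 683 reads in libraries 58, 51, 64 and 56. It was called higher there than in CycW5 cows (log2 fold change 3.40, SE 1.04, edgeR BH P = 0.0260), and the library with 683 reads was also that with the most OXTR. Only this library (56, 22.5 CPM) lay above the CycW5 range of 0 to 3.65 CPM. Libraries 58, 51 and 64 lay within it, at 0.189, 0.836 and 1.89 CPM. Whether OXT would be called without library 56 was not tested.

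The 5 genes of prostaglandin metabolism that could be read all passed in both main comparisons, where 26.6% and 35.7% of all genes did. HPGD, the enzyme that inactivates prostaglandins, was higher in CycW5 than in NoCycW5 cows at week 5 (log2 fold change 3.58, BH P = 9.75e-07), as were PTGS2, the inducible cyclooxygenase (2.65, BH P = 0.00114), and the phospholipase gene PLA2G4A (0.89, BH P = 0.00613). PTGES, a PGE2 synthase (-1.81, BH P = 0.00285), and PTGFR, the PGF2α receptor (-2.72, BH P = 0.0260), were lower. Between the weeks in NoCycW5 cows, HPGD (4.07), PTGS2 (3.36) and PLA2G4A (1.57) rose, and PTGES (-1.70) and PTGFR (-4.89) fell, with edgeR BH P values from 2.89e-07 to 0.00252. In CycNoP4 cows at week 5 the list was divided. Against CycW5 cows HPGD was lower (-2.96, BH P = 0.00947) and PTGES higher (1.68, BH P = 0.00510), whereas PTGS2 stood at 0.02 (SE 0.81, BH P = 0.987). Against NoCycW5 cows PTGS2 was called higher (2.68, edgeR BH P = 0.0203). HPGD (0.63, BH P = 0.467) and PTGES (-0.12, BH P = 0.845) were not called there.

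Markers of cell types moved with some of these comparisons. The epithelial genes EPCAM and KRT8 (2 of 6 markers could be read) were higher in CycW5 than in NoCycW5 cows at week 5 (0.71 and 0.78, edgeR BH P = 0.0234 and 4.71e-06). Their summed level was 296 to 855 CPM in CycW5, 216 to 415 CPM in NoCycW5 and 435 to 743 CPM in CycNoP4 cows at week 5. The sum in the CycNoP4 libraries thus lay above that of all NoCycW5 libraries, and library 57 had a sum of 446 CPM. Each gene alone overlapped between these groups. EPCAM was at 281 CPM or more in CycNoP4 and reached 303 CPM in NoCycW5 libraries. KRT8 was at 96.6 CPM or more in CycNoP4 and reached 123 CPM in NoCycW5 libraries. In the edgeR test between these groups, KRT8 was called higher in CycNoP4 cows (0.93, BH P = 0.00330), where 14.7% of genes were called. EPCAM was not called (0.88, BH P = 0.0510). EPCAM and KRT8 also rose between the weeks in NoCycW5 cows (1.09 and 0.64, edgeR BH P = 0.000364 and 4.95e-05), to 322 to 825 CPM. The endothelial genes CDH5 and VWF (2 of 3) summed to 150 to 310 CPM in CycW5 and 218 to 589 CPM in NoCycW5 cows at week 5 and were both called lower in CycW5 cows. Between the weeks in NoCycW5 cows VWF fell (-0.62, edgeR BH P = 0.00968) and CDH5 did not pass (-0.10, BH P = 0.594). The stromal gene PDGFRA (1 of 8) did not pass between CycW5 and NoCycW5 cows at week 5 (-0.07, BH P = 0.789). Markers of smooth muscle and leukocytes are not analysed here. The part of these shifts in the receptor results was not tested, and fewer cells of a type and less RNA per cell cannot be told apart in such samples.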

How the data were processed

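Endometrial biopsies were taken at weeks 5 and 9 postpartum, and mRNA libraries (TruSeq, stranded) were read from a single end. Trimming by the authors used cutadapt and fqtrim, after which they aligned the reads to the UMD3.1 assembly with Hisat2 and assigned them to Ensembl genes with FeatureCounts; the submitters' notes also name StringTie and edgeR. The values deposited by the authors are raw counts per gene, without normalization, for 18830 genes in 50 libraries.

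Counts were analysed in R 4.3.3 with edgeR 4.0.16 (TMM, filterByExpr, robust quasi-likelihood test), limma 3.58.1 and DESeq2 1.42.0. CycW5 and NoCycW5 libraries at both weeks were fitted together (15483 genes), CycNoP4 libraries within week 5 (15738) or week 9 (15771), and the CycNoP4 weeks in a fit of all 50 libraries (16120). Genes with a BH P of 0.05 or less over all genes tested were called. Log2 CPM had a prior count of 2, and read ratios had 0.5 reads added. Single genes were also tested by two-sided permutation, exact with fewer than 10 libraries in a group and otherwise with 100000 resamples. Standard errors came from the F statistic, and 95% intervals were 1.96 SE wide on each side. The fits were tested on simulated data.

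The members, lists and tests were chosen with earlier results of these data known. Named genes were the members, the 5 genes with a symbol most correlated with each member, and up to 4 called genes of each list per main comparison, and OXT, NCOA3 and the libraries singled out were named after their values were seen. Symbols were paired with identifiers through the study's supplementary tables (2729 genes, 2321 with a symbol). The cow and the microbiota component of the study's model could not be fitted, because libraries are not linked to cows, and no sequences are shown. A gene of the lists is not reported here. Alternatives were DESeq2's size factors and Wald test, limma-voom with and without library quality weights, no filter, at least 1 CPM in 10 libraries, other sets of libraries in the fit, CycNoP4 counted as CycW5, and leaving out each library (100 fits).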

Additional observations from a re-analysis of the deposited data

Results flagged for a closer look

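OXTR in library 57 (151 CPM) stood apart from the other 9 CycW5 libraries at week 5, of which the next highest had 50.4 CPM. On the CPM scale, the gap was wider than Dixon's limit for 10 samples. For normally distributed values, chance alone would mark about 1 in 20 groups, and 9 groups were checked. The limit was not applied to log2 CPM, where library 57 was at 7.24, the next highest at 5.66 and the lowest of the group at 2.40. The same library had the lowest ESR2 (3.72 CPM), LRAT (2.17 CPM) and HPGD (12.1 CPM) of its group, a total of 28241627 counts, and epithelial markers (446 CPM) within the range of its group.

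The change of ESR2 between the weeks differed between NoCycW5 and CycW5 cows by 2.45 on the log2 scale (edgeR BH P = 0.00552), by a test of the difference itself.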

How the results depend on the processing

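There were 276 values of the 3 genes under settings that kept every library of the groups. Of these, 247 kept their direction and side of the threshold, 12 passed where edgeR had not and 4 no longer passed. The other 13 changed sign, all between values that were not called. Permutation tests entered these counts by an unadjusted P and all other settings by a BH P, so their passes do not share a threshold. ESR2 was called under every alternative for CycW5 against NoCycW5 cows at week 5, between the weeks in NoCycW5 cows and for the difference of these changes. None of the 16 relations changed sign or side with a prior count of 0.5 or DESeq2 size factors. No paired analysis was possible because the labels do not say which libraries came from the same cow. Where a change has no stated value behind it, the cause was not tested.

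OXTR in CycW5 against NoCycW5 cows at week 5 (-1.44, BH P = 0.117) passed with limma-voom (-1.84), with library quality weights (-2.04, BH P = 9.12e-05), in a fit of only these groups (-1.43, BH P = 0.00541) and by permutation (-1.82). OXTR between the weeks in NoCycW5 cows no longer passed with no filter (-1.69, BH P = 0.0522) or with CycNoP4 counted as CycW5 (-1.69, BH P = 0.0643). OXTR in CycNoP4 against CycW5 cows at week 5 no longer passed in the fit of all 50 libraries (2.17, BH P = 0.0606). In CycW5 cows between the weeks, ESR1 passed with quality weights (-0.65), with CycNoP4 counted as CycW5 (-0.72) and by permutation (-0.56, unadjusted P = 0.0326), and OXTR passed with quality weights (-1.79). ESR2 between the weeks in CycNoP4 cows passed with DESeq2 (1.68, BH P = 0.0423) and in a fit of only these groups (1.68, BH P = 0.0463). ESR1 there did not pass by exact permutation (-1.11, unadjusted P = 0.0571). By exact permutation, unadjusted, OXTR in CycNoP4 against NoCycW5 cows (0.72) and ESR1 in CycNoP4 against CycW5 cows (0.63, P = 0.0440) passed at week 5.

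Signs changed for OXTR in CycW5 against NoCycW5 cows at week 9 with limma-voom (-0.10), quality weights (-0.030), CycNoP4 as CycW5 (-0.26) and permutation (-0.12). They changed in CycNoP4 against CycW5 cows at week 9 for ESR1 (0.068 with limma-voom, 0.17 with quality weights, 0.084 by permutation) and ESR2 (0.24, 0.027 and 0.29), and against NoCycW5 cows for ESR1 with quality weights (0.076). With CycNoP4 as CycW5 they changed for ESR2 between the weeks in CycW5 cows (0.27) and for the difference of changes of ESR1 (0.0525).

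Leaving out 1 library gave -1.88 to -1.30 for OXTR in CycW5 against NoCycW5 cows at week 5 and -0.64 to 0.63 at week 9. Between the weeks it gave -2.24 to -1.56 for OXTR and -0.80 to -0.55 for ESR1 in NoCycW5 cows, -0.23 to 0.086 for ESR2 and -0.87 to 0.26 for OXTR in CycW5 cows, and -1.31 to -0.91 for ESR1 and -6.38 to -4.96 for OXTR in CycNoP4 cows. In CycNoP4 against CycW5 cows it gave -2.10 to -1.54 for ESR2 at week 5, and -0.14 to 0.10 for ESR1 and -0.19 to 0.13 for ESR2 at week 9. Where 2 libraries of a group remained, the fit took its spread from all groups.

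The background moved too. Between the weeks in CycW5 cows the genes called were 7 with edgeR, 0 with limma-voom, 243 with DESeq2 and 3181 with quality weights, and for the difference of changes 1210, 621, 1848 and 3161. With CycNoP4 as CycW5 they were 497 and 597. Quality weights called 8562 genes between the weeks in NoCycW5 cows (5533 with edgeR), 4952 in CycNoP4 cows (3158) and 3718 for CycNoP4 against NoCycW5 cows at week 5 (2319). Fits of only the groups compared called 904 genes in this last comparison, 1771 against CycW5 cows (2786) and 1231 between the weeks in CycNoP4 cows. ESR2 rested on 8 to 129 reads in NoCycW5 cows at week 5, and OXTR on 51 to 248 reads in CycNoP4 cows at week 9.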

Other observations

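Genes that ran opposite to OXTR over the 50 libraries were looked up after the values had been seen, among the genes with a symbol. The lowest Pearson r were those of the amino acid transporter gene SLC38A7 (-0.87), TSC22D3, a leucine zipper gene known to be induced by glucocorticoids (-0.87), the Wnt inhibitor gene DKK1 (-0.85), ZNF335 (-0.85) and ATP1B2, a sodium pump subunit (-0.84). Opposite to ESR2, the lowest were PPP1R18 (-0.86), ST3GAL6 (-0.82) and RARA, a retinoic acid receptor gene (-0.82). The libraries share their group and week, so these values are a description.

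Among the week 9 libraries with the upper level of OXTR, those with little ESR2 had HPGD at 17 CPM (library 87), 22 CPM (library 76) and 134 CPM (library 91). The lowest value in the other week 9 libraries was 291 CPM. The rest of the upper set, libraries 72, 75, 80 and 83, had HPGD at 440, 590, 565 and 529 CPM. OXT had 46, 41 and 100 reads in libraries 87, 76 and 91 and at most 13 reads in every other week 9 library.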
